A study of Caenorhabditis elegans with 2 samples.

Results

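The 4 trap genes of *Caenorhabditis elegans* encode the subunits of the translocon-associated protein complex, and they are 4 of the 19973 protein-coding genes on the nuclear chromosomes of assembly WBcel235. They were taken by name from its gene annotation, which gives each of them 1 transcript. This complex sits in the membrane of the endoplasmic reticulum (ER) beside the Sec61 channel, through which new proteins with a signal sequence are threaded into the ER while the ribosome is still making them. It binds the translocating ribosome and helps substrates whose signal sequence opens the channel poorly. RefSeq annotates trap-1 as the alpha subunit, trap-2 as beta, trap-3 as gamma and trap-4 as delta; in mammals the gamma subunit lies mostly within the membrane, while alpha, beta and delta carry domains in the ER lumen.

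The protein located on DNA was the zinc finger protein ZTF-23, by chromatin immunoprecipitation and sequencing (ChIP-seq). Both samples were biological replicates of 1 group: whole mid-stage embryos of strain RW12279, collected by egg bleaching with a labelled age of 1.5 hours, with ztf-23 on chromosome I extended by CRISPR with TY1, EGFP and 3xFLAG. Per the description an antibody to GFP pulled down the chromatin, although one label gives ztf-23 as the antibody, and sonication left fragments of 200 to 800 bp. Both samples carried the tag, the control experiment the labels name was not analysed here, and a whole-embryo value is a mixture over all cell types. The trap genes were picked because a trap-3 peak tops the peak list, so the positions, ranks and signals below are descriptions with no test. Of the 4 genes, 2 had a summit within 1000 bp of their start in the list the authors named conservative, 1 of their 2 thresholded lists for both replicates combined; 7.2% of all protein-coding genes did. Summits, the strongest base of each deposited region, are given 1-based on ce11, the same assembly. Signal is the peak caller's own value, its scale is not stated, and the sources used here do not give read depth.

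Between trap-3 and the Sec61 gene sec-61.B lay the strongest region of the data set. The trap-3 gene (WBGene00021420, IV: 2389445 to 2390259, plus strand, 3 exons) faces away from sec-61.B (IV: 2388185 to 2388675, minus strand), which encodes the beta subunit of the Sec61 channel, and 769 bp separate the pair. The conservative peak covered IV: 2388847 to 2389436, all of it inside that gap. Its summit stood 301 bp upstream of trap-3 and 469 bp upstream of sec-61.B. One peak thus lies upstream of both a gene of the channel and a gene of the complex beside it, nearer to the latter.

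The sequence around this summit is printed because it holds stretches that recur at other strong peaks. The 151 bases centred on it (chrIV:2389069-2389219, plus strand, WBcel235) are as follows, with both recurring stretches in capitals.
trap-3 and sec-61.B: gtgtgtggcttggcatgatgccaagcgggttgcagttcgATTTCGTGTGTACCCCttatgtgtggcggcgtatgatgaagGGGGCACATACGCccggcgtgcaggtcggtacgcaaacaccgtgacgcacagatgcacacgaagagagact

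The right-hand stretch, GGGGCACATACGC, begins 5 bp past the summit. It was the longest run of bases that the window reaching 50 bp to either side of the trap-3 summit shared with the same window at 3 of the next 9 strongest nuclear peaks, near eef-1G and eef-1A.2, which encode elongation factors, and icd-1, whose product belongs to the complex that meets nascent chains at the ribosome and whose window held 2 copies. The left-hand stretch is 16 bases long, and its only other copy on the nuclear chromosomes was at the peak near wip-1, an actin regulator of the WASP-interacting family. Read on the opposite strand it also begins with GGGG. Copies are printed with 7 bases on either side, all reading from the run of Gs, with the shared stretch in capitals.
trap-3, right (chrIV:2389142-2389168, plus): gatgaagGGGGCACATACGCccggcgt
eef-1G (chrV:10965705-10965731, plus): tctgccaGGGGCACATACGCagacttt
icd-1, first copy (chrII:6588979-6589005, minus): aaagcaaGGGGCACATACGCacggaat
icd-1, second copy (chrII:6589022-6589048, plus): ggggtaaGGGGCACATACGCagaatct
eef-1A.2 (chrX:7823338-7823364, plus): agcacaaGGGGCACATACGCaaaggcg
trap-3, left (chrIV:2389101-2389130, minus): cacataaGGGGTACACACGAAATcgaactg
wip-1 (chrIII:5018274-5018303, plus): cagtctgGGGGTACACACGAAATgcccggc

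Aligned at the first G, both stretches have the letters GGGGNACANACG in common, where N is any base, and the trap-3 window thus held 2 copies on opposite strands, with 25 bp between the stretches. Both the stretches and this shared pattern were chosen after the values were seen, and the windows at trap-3, eef-1G, icd-1, eef-1A.2 and wip-1 hold the pattern because it was read from them. The pattern, searched on both strands, was in the windows of 6 of the 10 strongest nuclear peaks, those 5 and the one near dkc-1, and of 8 of the 2212 nuclear conservative peaks other than the trap-3 one (0.362%). None of 4426 flanking windows of the same width, centred 300 bp to either side of each summit, held it, and 18 of 19973 protein-coding genes (0.0901%) had it in the 1000 bp upstream. Only the trap-3 and icd-1 windows held 2 copies. The pattern occurred 41 times on the nuclear chromosomes, 12 of them (29.3%) within 50 bp of a conservative summit, and the full right-hand stretch 8 times, 6 of them that near. Copies at the peaks they were read from are among both the 12 and the 6. These shares, and the contrast with the flanking windows, are thus partly fixed by that choice and were not tested. The match near dkc-1, which encodes the pseudouridine synthase of snoRNPs, is printed with the pattern in capitals.
dkc-1 (chrIII:10748197-10748222, plus): aggcataGGGGCACACACGcagcctg

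The word chosen by the rule set for this report was a different one. Among words of 8 bases in the trap-3 window, GTTCGATT was in the windows of the most of the 100 strongest other nuclear peaks, 8 of them, none among the next 9. Over all 2212 other peaks it was in 58 windows (2.62%), against 22 of 4426 flanking windows (0.497%), and 3.97% of protein-coding genes had it within 1000 bp upstream. The 8 windows by which it was chosen are among the 58, so this difference is partly fixed by the choice. Neither that word, the stretches nor the shared pattern was found in the 1000 bp upstream of trap-2, trap-4 or trap-1, or in the window of their strongest summit. For comparison, the windows at the trap-2 and trap-4 summits described below hold no capitals.
trap-2 and ile-2 (chrX:768223-768323, minus): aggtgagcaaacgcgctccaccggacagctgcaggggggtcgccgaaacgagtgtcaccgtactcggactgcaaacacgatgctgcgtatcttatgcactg
trap-4 and ccf-1 (chrIII:11920353-11920453, plus): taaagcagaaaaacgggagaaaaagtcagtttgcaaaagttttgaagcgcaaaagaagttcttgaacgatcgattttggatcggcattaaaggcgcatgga

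The trap-3 window was 59.4% G and C, and so was that of trap-2, against a median of 49.5% for nuclear conservative peaks; 8.90% of those peaks had as much or more. At trap-4 the share was 39.6% and at trap-1 53.5%.

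**Figure D1:**
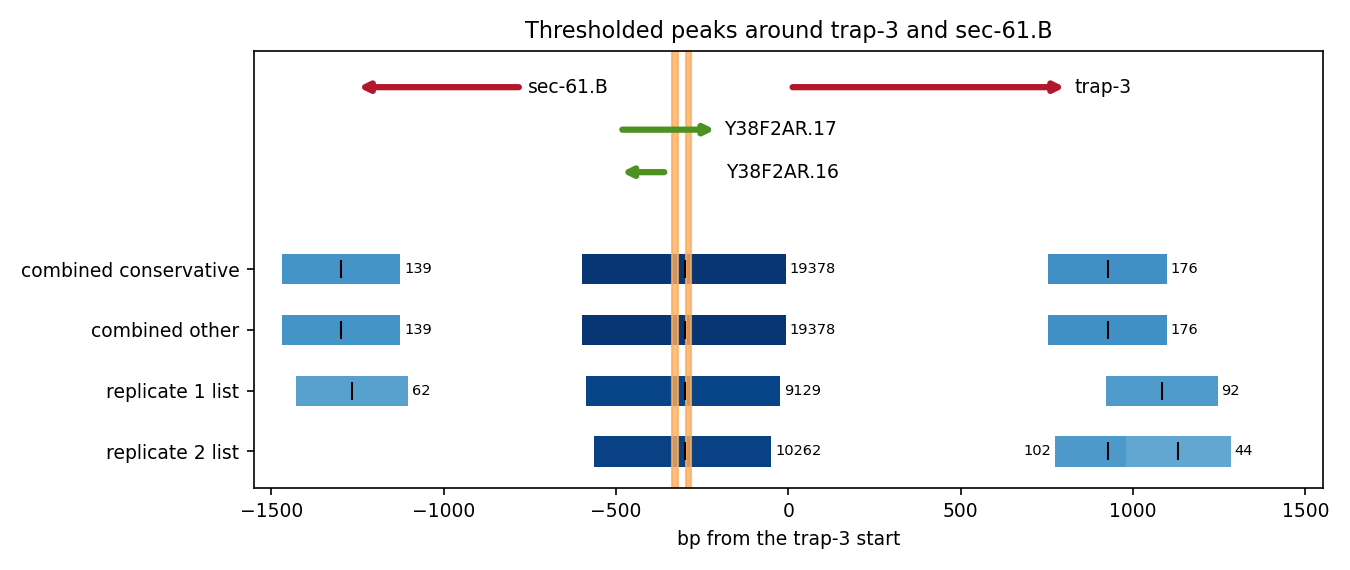
Deposited thresholded peaks around trap-3 and sec-61.B, by list (rows) and distance from the trap-3 start in bp (horizontal axis). Bars are peaks with their signal beside them (darker is stronger), ticks are summits, arrows are gene records (red protein-coding, green ncRNA) and orange bands are the 2 recurring stretches. The central peak fills most of the gap between the divergent genes in all 4 lists, with signals of 9129 to 19378, and the flanking peaks have signals of 44 to 176.

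Replicates gave the trap-3 peak nearly the same place and strength. Its signal was 19378 in the combined lists, 9129 in replicate 1 and 10262 in replicate 2, and it ranked 1 in each of the 8 deposited lists, ranked and thresholded. The summits of the replicates were 1 bp apart, at 300 and 301 bp upstream. The combined signal of this peak was 0.999 times the sum of its replicate signals. Over the weaker trap regions that share ran from 0.481 to 0.991. The low values, 0.481 at trap-4 and 0.725 and 0.596 at trap-1, come from neighbouring combined regions matched to the same replicate regions. Elsewhere it was 0.904 to 0.991. Apart from these shares, combined signals are not compared in size with those of a single replicate. The ratio of replicate 2 to replicate 1 was 1.12, within the 5th to 95th percentiles of 0.783 to 1.78 over 2189 nuclear conservative peaks (median 1.18). The peak was 590 bp wide, and 1 of the other nuclear conservative peaks was wider. The median was 344 bp, and only 12 of the 2213 were wider than that. Median widths were 324 bp in the lists of replicate 1 and 304 bp in those of replicate 2. A width at these values is thus the usual one of its list and is not read as an extent of binding.

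Both ncRNA genes in the gap lay wholly under the peak. Y38F2AR.16 (IV: 2388949 to 2389097, minus strand, 149 bp) and Y38F2AR.17 (IV: 2388951 to 2389244, plus strand, 294 bp) overlap each other by 147 bp on opposite strands. The summit lay inside Y38F2AR.17, 193 bp downstream of its start, and both recurring stretches were inside it too. Y38F2AR.16 points the other way, and its start, 47 bp off, was the nearest of any annotated gene. Of the nuclear conservative peaks, 19% overlapped a record of the class ncRNA and 28.6% a non-coding record of any class. No deposited region with its summit within 1000 bp of trap-2, trap-4 or trap-1 overlapped a non-coding gene. The peak lists do not carry strand, so a peak over these records cannot be given to one of the 4 genes.

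Weaker summits flanked the trap-3 peak at the far ends of both coding genes. The combined lists had one 926 bp downstream of the trap-3 start, 112 bp past the end of the gene and 450 bp upstream of eri-5, which encodes a Tudor domain protein of small RNA pathways. Its signal was 176, at rank 636 of 2234 in the conservative list, 638 of 2413 in the other combined list, 757 of 104803 and 759 of 104882 in their ranked parents. In replicate 2 its summit was at the same base, with signal 102 (rank 598 of 1233 thresholded and 729 of 58911 ranked). The overlapping region of replicate 1 had signal 92.0 (rank 522 of 959), but its summit lay 1083 bp downstream, just beyond the limit of 1000 bp. That region also overlaps a combined ranked region 1125 bp downstream, whose summit is nearer to its own. The 92.0 is thus not a separate replicate value for the summit at 926 bp. Of all protein-coding genes, 0.501% had 2 or more conservative summits that near to their start.

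The thresholded lists had 2 more regions just outside the limit. Replicate 2 had one 1131 bp downstream with signal 44.2, and the conservative list had one 1298 bp upstream with signal 139 (rank 945), 38 bp past the far end of sec-61.B. That last region was in the list of replicate 1 (signal 62.04, summit 1266 bp upstream) and was below the threshold in replicate 2, with signal 73.1 and a score of 517. Ranked lists alone held others: the combined ones had a region 1125 bp downstream (signal 128) and one 1098 bp upstream (26.4), and replicate 2 had one 1060 bp upstream (11.0). The score, from 0 to 1000, rises with reproducibility between replicates or between split data, and the lowest score in the conservative list was 830.

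trap-2 was the only other subunit gene with a thresholded summit within 1000 bp of its start. It encodes the beta subunit (WBGene00020216, X: 767023 to 768069, minus strand, 4 exons). Its combined signal was 214, and its signals were 100.9 in replicate 1 and 115.2 in replicate 2, a ratio of 1.14 between replicate 2 and replicate 1. It was in all 4 thresholded lists, at rank 456 of 2234 in the conservative list, 457 of 2413 in the other combined list, 446 of 959 in replicate 1 and 489 of 1233 in replicate 2. In the 4 ranked lists its rank was 557, 558, 547 and 605. Its summit was 204 bp upstream in the combined lists, 149 bp in replicate 1 and 175 bp in replicate 2, so its summits lay farther apart than those of trap-3.

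Like trap-3, trap-2 shares its peak with a divergent gene of the secretory route. Across 526 bp lies ile-2 (X: 768596 to 770776, plus strand), which encodes a lectin-like protein related to cargo receptors that carry glycoproteins out of the ER, and the summit was 323 bp upstream of it. The peak (X: 768101 to 768444, 344 bp wide, the median of its list) lay wholly between the starts and overlapped no gene record. The region of replicate 1, 324 bp wide like the median of its list, reached into trap-2. Ranked lists held weaker regions that no thresholded list kept. They lay 500 bp downstream (signal 49.5) and 898 bp upstream (12.4) in both combined lists, and 652 and 435 bp downstream in replicate 2 (29.9 and 22.3). Replicate 1 had no second region within 1000 bp.

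trap-4 fell short of the threshold. It encodes the delta subunit (WBGene00013238, III: 11920735 to 11921586, plus strand, 3 exons) and faces away from ccf-1, which encodes a deadenylase of the CCR4-NOT complex, across 497 bp. The strongest summit within 1000 bp lay in that gap, 332 bp upstream of trap-4 and 166 bp upstream of ccf-1. The combined signal was 92.5, at rank 3326 of 104803 and 3323 of 104882, with scores of 728 and 737. Its −log10 IDR (irreproducible discovery rate, larger where replicates rank a region alike) was 1.75, against 5 for trap-3 and 3.48 for trap-2 in the same list. Replicate 1 had signal 50.04 there (rank 2500 of 59587) and replicate 2 had 43.3 (rank 7630 of 58911), with summits 307 and 206 bp upstream. The ratio of replicate 2 to replicate 1 was 0.866, on the other side of 1 from those of trap-3 and trap-2. All 3 ratios were within the 5th to 95th percentiles of nuclear conservative peaks (0.783 to 1.78).

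The limit of 1000 bp decides the count for trap-4. A conservative peak had its summit 1285 bp downstream of the trap-4 start, with signal 93.8 and score 901 at rank 2031 of 2234, and it lay 328 bp downstream of the start of the next gene, Y56A3A.22. The other combined list did not keep it; its score in that ranked list was 685. The replicates had signals of 47.4 and 54.5 there, in ranked lists only. Further ranked regions within 1000 bp had combined signals of 44.9 (129 bp upstream) and 41.8 (820 bp downstream). In replicate 1 there was 1 more, 106 bp upstream (17.1). In replicate 2 there were 2 more, 776 bp downstream (31.4) and 56 bp downstream (7.70).

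trap-1, the alpha subunit gene (WBGene00022122, I: 2928395 to 2929628, plus strand, 4 exons), had no thresholded summit in any list within 2000 bp. It is also the one trap gene with no divergent partner: Y71F9AL.1, annotated as a tRNA methyltransferase, ends 260 bp before it on the same strand, and nxt-1, an mRNA export gene, begins 148 bp after it. The strongest ranked region within 1000 bp was 841 bp downstream, inside the gene, with a combined signal of 57.4 at rank 18339 of 104803. Others lay 218 bp upstream (49.6), 738 bp upstream (47.8) and 18 bp downstream (40.8).

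The replicates placed the strongest trap-1 region differently. In replicate 1 it was 859 bp downstream (35.5, rank 9823), with others 51 bp downstream (23.3), 740 bp upstream (19.3) and 453 bp upstream (5.44). In replicate 2 it was 198 bp upstream (45.1, rank 6537), with others 665 bp (28.0) and 7 bp downstream (15.4). The nearest region outside the limit on the downstream side was stronger than any inside it, with a combined signal of 81.3, 1531 bp downstream and 149 bp past the nxt-1 start. Within each replicate it was weaker than the strongest one inside, with 27.5 against 35.5 in replicate 1 and 42.4 against 45.1 in replicate 2.

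**Figure D2:**
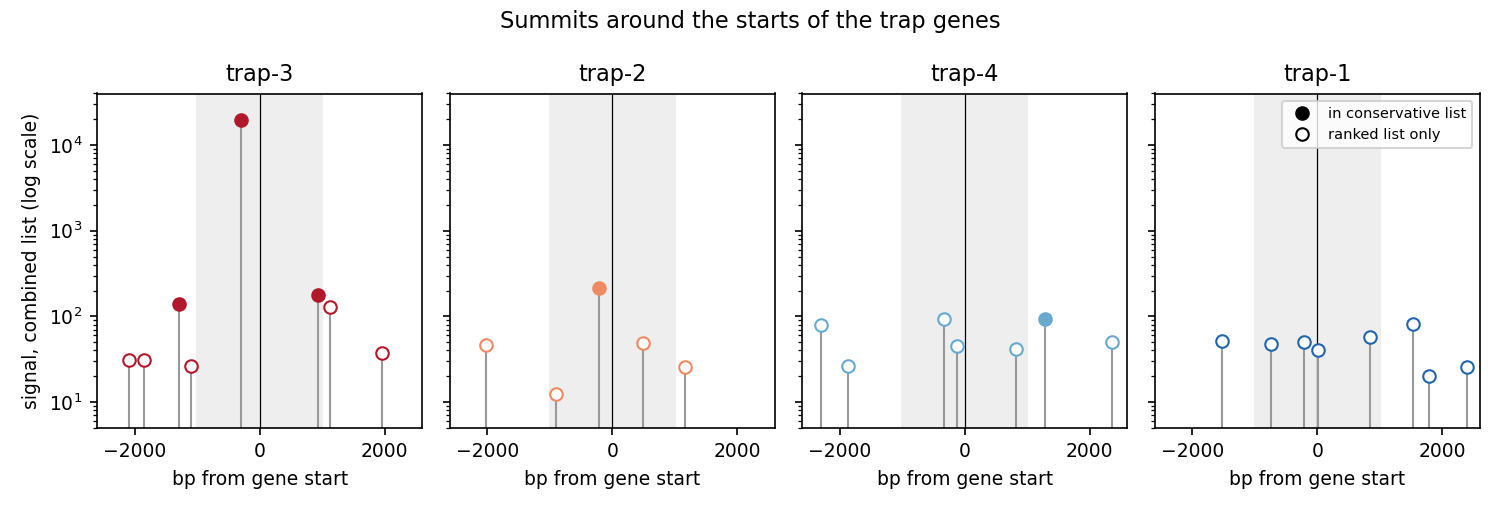
Combined signal (log scale) of every ranked region with its summit within 2500 bp of the start of each trap gene, by distance from the start in bp, negative upstream. Filled points are in the conservative list, open points only in its ranked parent, and grey marks the limit of 1000 bp. trap-3 has a summit of 19378 and one of 176 inside the limit, trap-2 one of 214, and trap-4 and trap-1 have open points only there.

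Set against each other, the subunit genes spanned a wide range of signal. Within the combined ranked list the trap-3 signal was 90.5 times that of trap-2, the next of the 4, and the same ratio was 90.5 in replicate 1 and 89.1 in replicate 2. The order trap-3, trap-2 and then the other two held in the combined list and in both replicates. The order of trap-4 and trap-1 did not: trap-4 was higher in replicate 1 (50.04 against 35.5) and trap-1 in replicate 2 (45.1 against 43.3). In all, the 8 lists held 54 entries with a summit within 1000 bp of a trap start, 14 at trap-3, 14 at trap-2, 11 at trap-4 and 15 at trap-1. Of the 11 entries in thresholded lists, 7 were at trap-3 and 4 at trap-2. The same peak counts again in each list that holds it, so these are not numbers of separate regions.

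**Figure D3:**
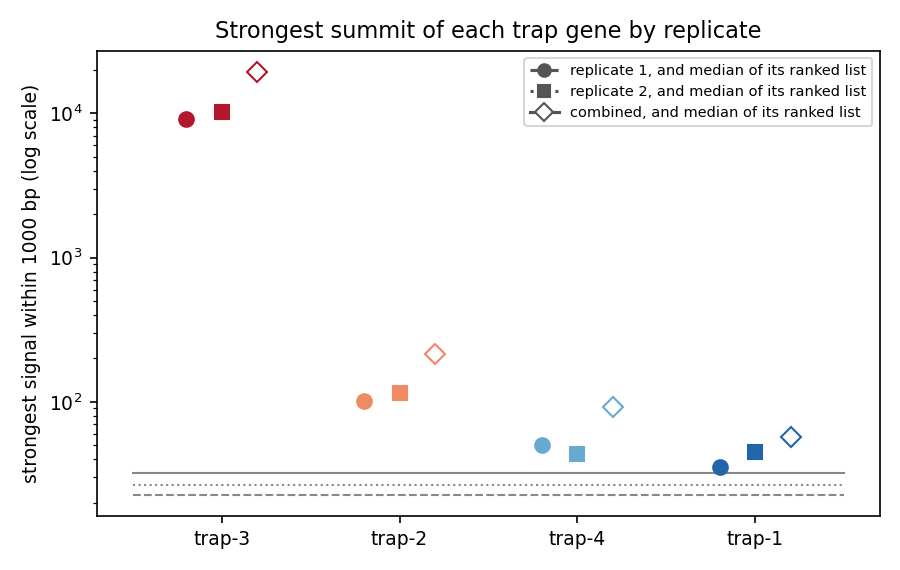
Strongest signal within 1000 bp of each trap start (log scale) in the ranked lists of replicate 1 (circles), replicate 2 (squares) and both combined (diamonds), with the median region of each list as a dashed, dotted and solid line. trap-3 has 9129 and 10262, trap-2 has 100.9 and 115.2, and the trap-4 and trap-1 points lie between 35.5 and 50.04 in the replicates.

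All 4 genes had a ranked region that near, as did 73% of protein-coding genes in the same combined list, 59.9% in the ranked list of replicate 1 and 60.5% in that of replicate 2, so presence there is near the background. By strongest combined signal within 1000 bp, trap-3 was at place 1 of 14587 such genes, beside sec-61.B with the same peak. trap-2 was at place 381, trap-4 at 1914 and trap-1 at 6512, where the median gene had 53.9. In replicate 1 the places were 1, 373, 1510 and 4084 of 11973, in the order trap-3, trap-2, trap-4, trap-1, and in replicate 2 they were 1, 414, 3434 and 3070 of 12076. In the order of the conservative list alone, the genes after trap-3 and sec-61.B were eef-1G and ctf-4 (17955, a shared peak) and set-16 (17132). The protein-coding gene nearest to that last peak is drr-2. Around trap-2 and ile-2 stood C14A11.9 (214.4), ZK546.19 and eaf-1 (both 214.5) above, and egl-30, rpl-27 and C53H9.4, with one peak of 213.7, below. Likeness here means strength in this one assay over 2 replicates.

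**Figure D4:**
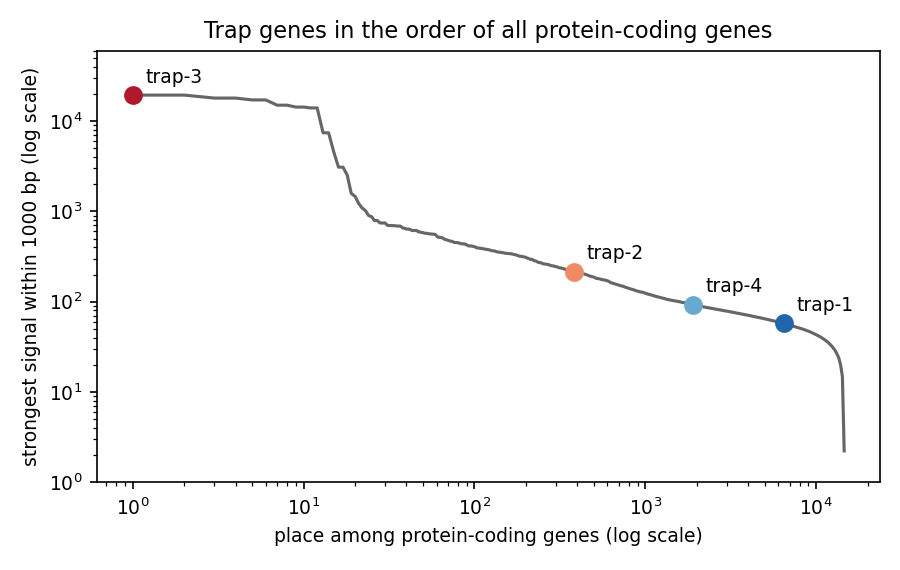
Strongest signal within 1000 bp in the combined ranked list (vertical, log scale) for 14587 protein-coding genes in descending order (horizontal, place, log scale). The trap genes stand at places 1, 381, 1914 and 6512.

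Divergent partners went with the thresholded peaks only in part. trap-3, trap-2 and trap-4 are each in a divergent pair with starts no more than 1000 bp apart (770, 527 and 498 bp), as are 17.5% of protein-coding genes, and 15.8% of the genes in such pairs had a conservative summit within 1000 bp, against 5.39% of the rest. Of the nuclear conservative summits, 11% lay between such a pair. Each of these is within 1000 bp of both starts and counts for both genes, as at trap-3 and sec-61.B. The shares of 15.8% and 5.39% are therefore not like for like. The distance between starts was chosen after the values were seen.

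The lists of other ER genes, for import, processing and folding, were chosen with earlier results of these data known. Of their 36 members, 14 (38.9%) had a conservative summit, beside the 7.2% of all protein-coding genes. Without sec-61.B it was 13 of 35; that gene has the trap-3 peak and a second conservative summit, 528 bp downstream of its start (signal 139). Apart from that peak their signals ran from 88.3 to 383 with a median of 170, the order of magnitude of trap-2 and far below trap-3; the median over all 1439 protein-coding genes with such a summit was 149. Summits were upstream of the start at 12 of the 14. That share was not computed over all protein-coding genes, so it is not read as a trait of these. The pattern GGGGNACANACG was in the window of 1 of the 14, the shared peak of sec-61.B.

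By role, the channel had 2 of 3 members with a summit: sec-61.B and sec-61.G, the gamma subunit (signal 320; 154 in replicate 1 and 175 in replicate 2), but not sec-61.A, the pore itself. The signal recognition particle, which brings ribosomes to the ER, had 2 of 6, among them F37F2.2, annotated as its 19 kDa protein (129). Of its receptor genes 1 of 2 had one, F38A1.8, an SRP54-type GTPase (118). Signal peptidase, which cuts off the signal sequence, had 1 of 4, spcs-2 (271). The oligosaccharyltransferase, which adds sugars to the entering chain, had 1 of 6, dad-1 (331; 164 in replicate 1 and 169 in replicate 2).

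Among other import genes 2 of 3 had a summit: dnj-29, the J-domain protein of the Sec63 type (383; 169 in replicate 1 and 215 in replicate 2), and C18E9.2, which RefSeq calls the translocation protein SEC62 (123). The ER membrane complex, which inserts membrane proteins, had 1 of 5, emc-5 (110, 692 bp downstream of the start). Lumenal chaperones and folding enzymes had 4 of 7: the BiP genes hsp-3 (170) and hsp-4 (88.3), and the protein disulfide isomerase genes pdi-2 (194) and pdi-3 (105). The calnexin gene cnx-1 and the calreticulin gene crt-1 had none. hsp-4 and pdi-3 had a thresholded summit in the conservative list alone. F38A1.8, C18E9.2 and emc-5 had theirs in both combined lists but in neither replicate's list.

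The count of these genes changed with the list, and the share of all protein-coding genes changed too. The count was 13 of 36 in the other combined list, 9 in that of replicate 1 and 8 in that of replicate 2. In these lists 7.68%, 3.57% and 4.58% of protein-coding genes had a summit. trap-3 and trap-2 were the 2 trap genes in each. The presence of trap-3 was fixed by the choice of the top peak, so the trap and ER counts are not compared.

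**Figure D5:**
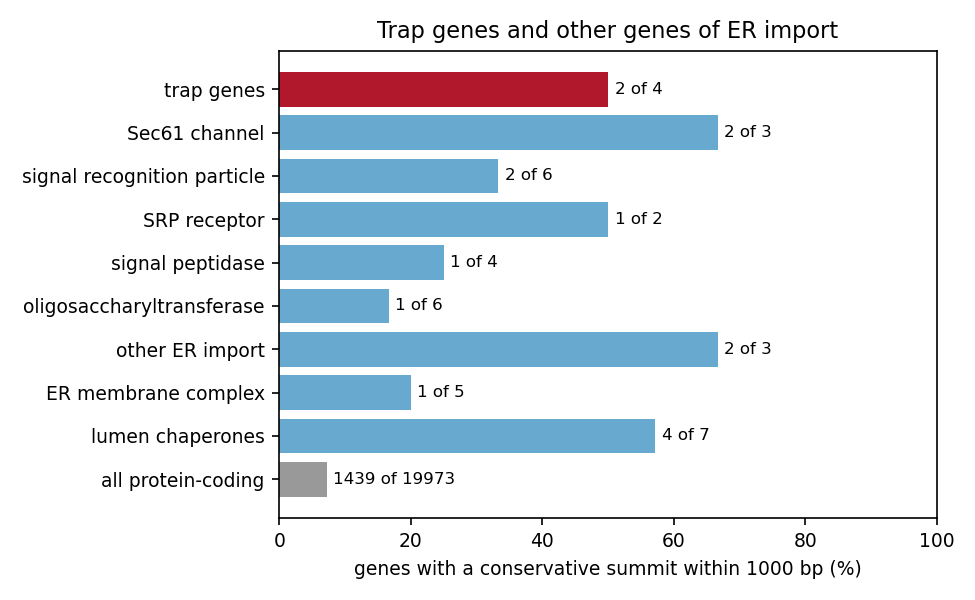
Share of genes with a conservative summit within 1000 bp of their start (horizontal, %), with counts beside the bars. Rows are the trap genes, 8 groups of ER genes (import, processing and folding) and all protein-coding genes. The trap genes have 2 of 4, the ER groups 1 to 4 members each, and all protein-coding genes 1439 of 19973.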

How the data were processed

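The authors deposited 8 lists of regions on ce11 coordinates: a ranked and a thresholded list for each of 2 replicates, and 2 of each kind for both replicates combined. Per the deposited descriptions, the thresholded lists were cut by IDR, the irreproducible discovery rate. Every peak of the conservative list, with its score, was in 1 of the combined ranked lists, called its parent here. Columns used were the authors' deposited signal value, whose normalization is not stated, their score, the summit offset, and, in ranked lists, the deposited −log10 IDR. The sources used here do not give the aligner, caller or read depth, so no interval or floor could be computed.

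Summits were assigned to gene starts of the Ensembl release 115 annotation of WBcel235 with Python 3.11.15 and pandas 2.3.3; no region ran past its chromosome's end. The replicate signal of a combined peak is the strongest region of that replicate's ranked list overlapping it by at least 1 bp. Sequences are from the RefSeq copy of WBcel235. The assignment was tested on simulated data. The trap genes, the limit of 1000 bp and the ER lists were chosen with earlier results of these data known. Of 47 ER names written, 36 genes were matched, 2 were second names of these and 9 had no match in the annotation. Named genes were the trap genes, records overlapping or facing their peaks, the 3 genes on either side in the order of signal, and ER genes with a summit, of which 1 is not reported here; other names were chosen after their values were seen.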

Additional observations from a re-analysis of the deposited data

How the results depend on the processing

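Of the 4 trap genes, 2 had a summit within 1000 bp in the conservative list. The count was also 2 in the other combined list, in either replicate's own list, within 500 bp, with transcript starts, with any base of the peak in place of the summit, with the 500 strongest peaks, with the nearest protein-coding start required, and with overlap of both replicate lists required (the last chosen after seeing the data). It was 3 within 2000 bp, where 10.4% of all protein-coding genes had a summit (5.29% within 500 bp), and 4 in either combined ranked list, which apply no threshold. It was 1, trap-2 alone, when the trap gene had to be the nearest annotated gene of any class, a setting chosen after seeing the data, since the trap-3 summit is nearest to Y38F2AR.16. The rank of the trap-3 peak was 1 in every alternative run for it (other lists, either replicate, mitochondrial peaks left out, 500 and 2000 bp). The peak was picked for that rank, and neither the window nor leaving out mitochondrial peaks could change it. The signal ratio of trap-3 to trap-2 ran from 89.1 to 90.5. Only the replicate lists gave it other values, since the remaining settings use the same combined peaks. The share of protein-coding genes with a summit was 3.57% to 4.58% with 1 replicate left out and 2.16% with the 500 strongest peaks, where fewer peaks were used. No paired analysis was possible because the series has 1 group. Neither depth nor an untagged or input library was used here to set a floor, so a gene without a thresholded summit is not shown to be unbound.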
